A study of Mus musculus with 21 samples.

Results

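The 43 genes described here encode the machinery that copies DNA in S phase, together with E2F1 and E2F2, transcription factors that switch on many S-phase genes. They were picked by gene symbol from the count table, where they are 43 of 41608 genes, and all 43 were among the 12187 genes with enough counts to be tested. The RNA came from immortalized fibroblasts of mouse embryos (MEFs) in 4 groups of 3 libraries: siHsf1 LacZ, siControl LacZ, siHsf1 GCN5 and siControl GCN5. Cells of both lines stably expressed a construct, LacZ (the control protein) or V5-tagged GCN5 (a histone acetyltransferase, gene Kat2a), and were transfected for 2 days with 10 nM siRNA against Hsf1 (siHsf1) or control siRNA (siControl). HSF1 activates the chaperone genes of the heat-shock response. Binding of c-MYC, a growth-promoting transcription factor, was mapped with CUT&RUN, a method that tethers a nuclease to antibody-bound protein and sequences the DNA released. These cells were Hsf1 CKO MEFs, given 1 mM 4-hydroxytamoxifen (the concentration as labelled) for 7 days to delete Hsf1, and Hsf1 WT MEFs, given ethanol for 7 days, so that deletion and exposure to the drug cannot be told apart. The labels name a c-Myc/N-Myc antibody and give the RNA groups as triplicates without saying whether these were separate cultures, so p-values measure the spread between these libraries, which may be technical. They do not say how many clones make up a line, or which Cre driver deleted Hsf1.

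DNA is copied once per cell cycle in ordered steps. In G1 the origin recognition complex, CDC6 and CDT1 load rings of the MCM helicase onto origins, a step called licensing that geminin blocks later in the cycle. At the start of S phase the kinase CDC7 with its partner DBF4, and then CDC45 and the GINS complex, turn the ring into an active helicase, and primase, DNA polymerases, the PCNA clamp and its loader RFC build the new strands. E2F factors, held back by RB proteins until late G1, activate many of these genes, whereas most genes of mitosis are activated later, in G2, by other factors that act through CHR elements.

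Each LacZ library held 7.22 to 8.16 M (mega) gene counts and each GCN5 library 3.69 to 4.27 M, a difference in depth that goes with the line, and between 22898 and 55648 counts per library fell on the 43 genes. The targeted gene followed its label. Hsf1 had 57.7, 55.5 and 47.9 CPM (counts per megacount, TMM-scaled) in siHsf1 LacZ libraries 1, 2 and 3, against 129, 129 and 135 CPM in the siControl LacZ libraries. It had 68.1, 74.7 and 73.2 CPM in siHsf1 GCN5 libraries and 137, 121 and 138 CPM in siControl GCN5 libraries. Of the fibroblast markers, 9 of 10 were expressed, with summed levels of 9370 to 10807 CPM in siHsf1 LacZ, 6541 to 7247 CPM in siControl LacZ, 8413 to 8617 CPM in siHsf1 GCN5 and 8119 to 8290 CPM in siControl GCN5 libraries, while 0 of 7 endothelial markers had enough counts to be tested. Summed epithelial markers, 2 of 8 tested, were 122 to 136 CPM in siHsf1 LacZ, 174 to 212 CPM in siControl LacZ, 119 CPM in siHsf1 GCN5 and 121 to 142 CPM in siControl GCN5 libraries. Summed neural markers, 4 of 8 tested, were 30.5 to 33.0 CPM in siHsf1 LacZ, 34.8 to 39.2 CPM in siControl LacZ, 54.8 to 65.1 CPM in siHsf1 GCN5 and 64.1 to 72.0 CPM in siControl GCN5 libraries. Summed haematopoietic markers, mostly the macrophage gene Cd68, were 12.01 to 14.3 CPM in siHsf1 LacZ, 6.70 to 8.67 CPM in siControl LacZ, 4.57 to 6.33 CPM in siHsf1 GCN5 and 5.43 to 6.64 CPM in siControl GCN5 libraries, with 6 of 10 at 0 in every library. The part of these differences in the results below was not tested.

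Promoters of 4 members are shown because these genes had the highest c-MYC peak maxima at their starts in Hsf1 WT cells among the 12 members with the smallest and the 4 with the largest edgeR p in the LacZ comparison (TMM scaling) that RefSeq matched. Members outside these 16, such as Mcm7, had maxima as high. They run from 250 bases before to 50 bases after the RefSeq start (GRCm38.p6), in the direction of the gene. Capitals mark E2F words (TTTGGCGC or TTTCCCGC), E-boxes (CACGTG), the CHR element of mitosis genes (TTTGAA) and CCAAT boxes, on either strand.
Cdt1, chr8:122567765-122568064 (+ strand): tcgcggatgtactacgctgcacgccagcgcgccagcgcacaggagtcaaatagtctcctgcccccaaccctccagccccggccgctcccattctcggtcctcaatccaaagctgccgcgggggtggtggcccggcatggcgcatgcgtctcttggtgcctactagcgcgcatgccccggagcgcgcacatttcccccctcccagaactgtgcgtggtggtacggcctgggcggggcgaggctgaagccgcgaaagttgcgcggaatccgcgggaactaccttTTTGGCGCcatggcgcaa
Orc6, chr8:85299382-85299681 (+ strand): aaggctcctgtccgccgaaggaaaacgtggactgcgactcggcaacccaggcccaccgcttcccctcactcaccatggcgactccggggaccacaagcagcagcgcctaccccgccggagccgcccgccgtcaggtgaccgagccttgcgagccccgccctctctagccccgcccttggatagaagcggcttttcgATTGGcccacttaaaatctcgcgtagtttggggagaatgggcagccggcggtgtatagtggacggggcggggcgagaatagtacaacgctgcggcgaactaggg
Pold2, chr11:5878207-5878506 (- strand): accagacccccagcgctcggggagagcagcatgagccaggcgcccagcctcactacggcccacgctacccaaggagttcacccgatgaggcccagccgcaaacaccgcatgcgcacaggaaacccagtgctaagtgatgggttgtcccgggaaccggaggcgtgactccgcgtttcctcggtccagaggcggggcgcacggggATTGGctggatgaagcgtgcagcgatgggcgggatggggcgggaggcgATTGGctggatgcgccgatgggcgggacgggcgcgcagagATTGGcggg
Mcm2, chr6:88898731-88899030 (- strand): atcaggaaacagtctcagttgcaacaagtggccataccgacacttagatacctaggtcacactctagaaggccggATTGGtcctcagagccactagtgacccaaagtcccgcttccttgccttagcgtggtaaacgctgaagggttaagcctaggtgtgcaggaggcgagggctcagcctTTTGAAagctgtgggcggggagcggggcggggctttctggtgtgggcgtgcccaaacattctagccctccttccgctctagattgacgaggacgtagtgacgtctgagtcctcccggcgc
The Cdt1 window holds an E2F word just past the start and no other marked word. The Pold2 window holds 3 CCAAT boxes, all on the reverse strand, and no E2F word. The Mcm2 window holds a CHR element with a CCAAT box and no E2F word, and the Orc6 window holds 1 CCAAT box.

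RefSeq promoters were matched for 35 of the 43 genes, all except Gins1, Gins2, Gins4, Gmnn, Mcm4, Pole, Prim2 and Rfc2. The RefSeq start nearest the annotated gene start was used, while the peaks below were taken at the annotated start. The 2 starts lay 3834 bases apart for Orc1, 2776 for Mcm10, 838 for Rfc1, 466 for E2f1 and 452 for Cdc6. For the other members they lay at most 206 bases apart (Fen1). An E2F word was present in 13 of 35 (37.1%), against 3.37% of 9232 promoters of all tested genes and 2.86% of 35 mitosis promoters. The CHR element was instead most common in the mitosis promoters. It was in 17.1% of member promoters, 71.4% of mitosis promoters and 11.7% of all promoters. CCAAT boxes were in 60.0%, 77.1% and 39.5% of these promoters in the same order, and the E-box bound by c-MYC was in 11.4%, 8.57% and 10.5%. The core of a heat-shock element (GAANNTTC) was in 5.71% of member promoters, those of Mcm5 and Pcna, against 5.43% of all. A match is a stretch of letters and not a shown binding site. Of 6 members with an E2F word before the RefSeq start (the GINS gene Gins3 is the other), 5 are printed with 12 bases on either side. The E2F word is in capitals, and distances are from the RefSeq start. They were picked since they show the word upstream of that start in genes of 3 steps: the helicase ring, its loader CDC6 and polymerase alpha.
Mcm5, chr8:75109348-75109379 (+ strand), first capital 149 bases before the start: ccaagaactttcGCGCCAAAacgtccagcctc
Mcm6, chr1:128359796-128359827 (- strand), first capital 110 bases before the start: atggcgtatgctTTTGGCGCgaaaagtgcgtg
Mcm6, chr1:128359733-128359764 (- strand), first capital 47 bases before the start: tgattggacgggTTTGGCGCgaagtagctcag
Mcm7, chr5:138172029-138172060 (- strand), first capital 165 bases before the start: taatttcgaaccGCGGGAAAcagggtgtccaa
Cdc6, chr11:98908001-98908032 (+ strand), first capital 138 bases before the start: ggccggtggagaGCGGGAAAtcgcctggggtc
Pola1, chrX:93632274-93632305 (- strand), first capital 138 bases before the start: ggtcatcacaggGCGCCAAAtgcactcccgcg
The words of these genes differ in strand and in distance from the RefSeq start, and Mcm6 holds the word 2 times. Counted from the annotated gene start (chromosome 11, 98907699), the Cdc6 word lies inside the gene.

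Levels were compared between genes per transcript length, in FPKM as deposited by the authors. In siControl LacZ libraries the clamp gene Pcna was highest, at 295 ± 23.5 FPKM (SD, n = 3), followed by Mcm3 at 166 ± 6.93, Mcm2 at 126 ± 3.04 and Mcm7 at 121 ± 6.86 FPKM. Mcm2 and Mcm7 did not differ beyond their spread. All 6 genes of the MCM ring lay between 74.3 and 166 FPKM, and its partners spanned a wide range. The GINS gene Gins2 stood at 115 ± 7.97 FPKM, Cdt1 at 79.7 ± 6.38 and Orc6 at 78.1 ± 4.51 FPKM, all above the lowest ring gene, Mcm4, though Cdt1 and Orc6 were near it. Orc1 stood at 8.33 ± 0.260 FPKM, Mcm10 at 13.2 ± 1.24 and the GINS gene Gins3 at 10.9 ± 0.557 FPKM. The activator E2f1 stood at 26.7 ± 1.37 FPKM, above E2f2 at 7.36 ± 0.330 FPKM. Lowest was Cdc45, at 6.25 ± 4.35 FPKM, whose libraries varied so widely that its place is uncertain.

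After knockdown of Hsf1 in the LacZ line the replication genes changed, relative to the bulk of genes, in both directions and by small amounts, while nearly all mitosis genes fell. With scaling to spike-in RNA all 43 members lay below 0 on the log2 scale, and 1 was called. Changes are given with TMM scaling, which sets each library by the bulk of its genes, and with scaling by the added ERCC spike-in RNA, which the series names. With TMM scaling 18 of 43 members were called at an edgeR adjusted p under 0.05, against 40.6% of all tested genes. Of these, 6 rose, against 21.1% of tested genes, and 12 fell, against 19.5%. The share of members called was thus close to that of all genes, and the median log2 fold change of the 43 was -0.04, with 0.02 for all genes. With spike-in scaling the member called was Pold2, against 7.02% of all genes. This count was 12 without siHsf1 LacZ library 1 and 0 without siHsf1 LacZ 2 or 3, siControl LacZ 1 or 3, or siHsf1 GCN5 1 or 2. Without siControl GCN5 3 the 1 member called was Cdc45. A fit with the replicate number as a block called 12 members with spike-in scaling. The all-gene median was -0.35, and that of the members -0.42. The median of the members minus that of all genes was -0.07 with TMM scaling and -0.08 with spike-in scaling. The 6 members that rose with TMM scaling had log2 fold changes under 0 with spike-in scaling, none of them called, so these rises are relative to the bulk of genes.

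**Figure D1:**
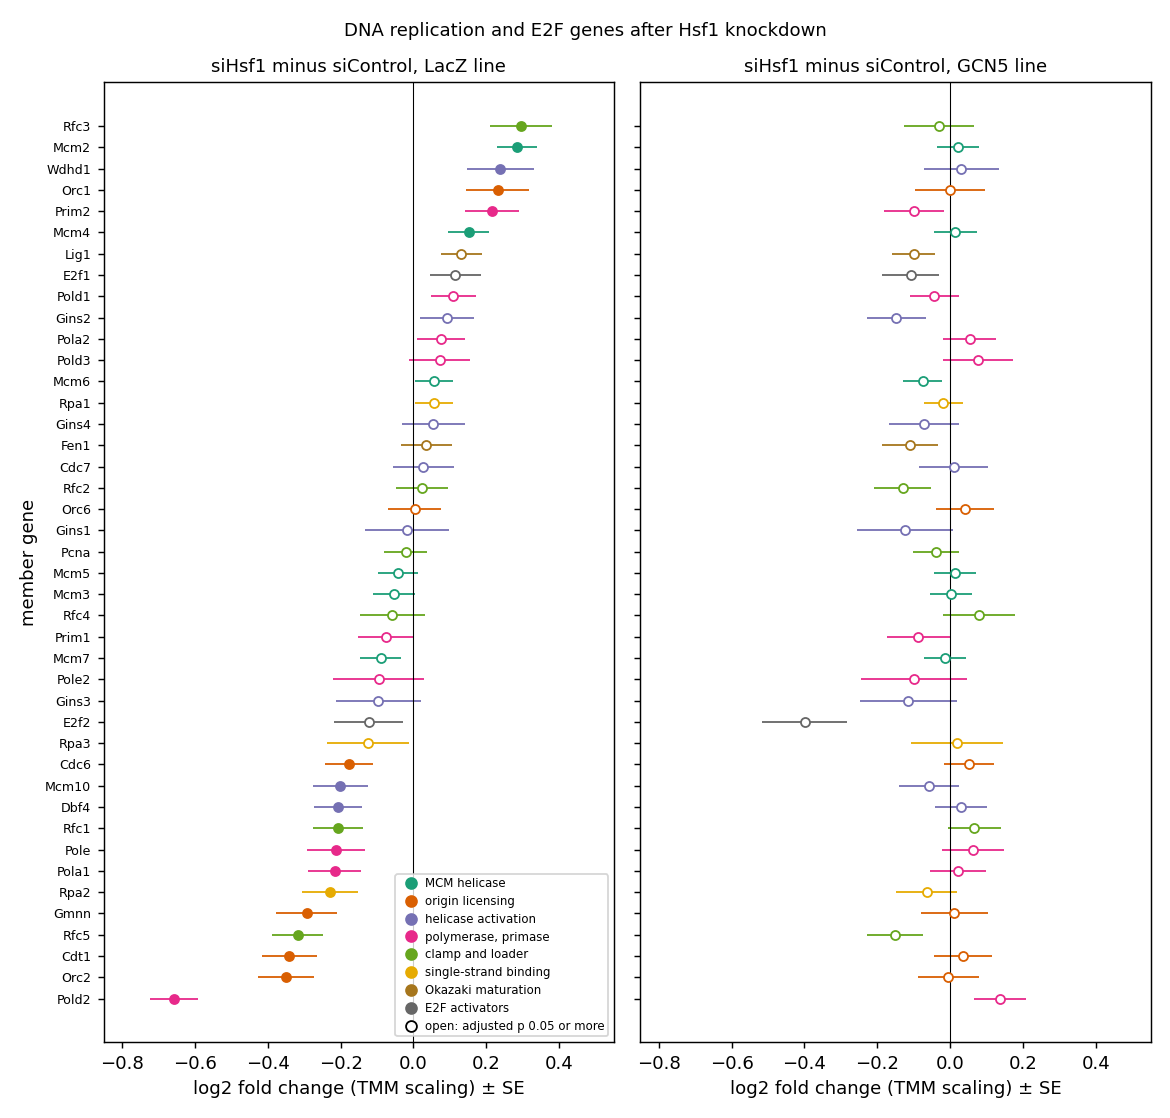
Log2 fold change (TMM scaling; points, with SE as bars) of 42 members, siHsf1 minus siControl, in the LacZ line (left) and the GCN5 line (right), coloured by role and filled where the edgeR adjusted p was under 0.05. In the LacZ line Pold2 stands lowest at -0.66 and 18 points are filled, and in the GCN5 line none is; Cdc45 (-0.92 ± 0.81 in the LacZ line) is not drawn.

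Pold2 changed the most of the genes called. It encodes the accessory subunit of DNA polymerase delta that holds the complex together (gene 18972, GRCm38 chromosome 11, 5872180 to 5878256). Its level was 64.6, 71.1 and 70.0 CPM in the siHsf1 LacZ libraries and 106, 112 and 106 CPM in the siControl LacZ libraries. Every siHsf1 library lay below every siControl library (log2 fold change -0.66 with SE 0.07, edgeR adjusted p = 1.9e-08). With TMM scaling it stayed called in each of the 12 fits that left out 1 library. Under spike-in scaling, too, it fell (log2 fold change -1.04 ± 0.32, edgeR adjusted p = 0.0275), but this call was lost in 7 of the 12 fits, those without siHsf1 LacZ 2 or 3, siControl LacZ 1 or 3, siHsf1 GCN5 1 or 2, or siControl GCN5 3, with the adjusted p between 0.0529 and 0.207. The catalytic subunit Pold1 and the other accessory subunit Pold3 were not called, at 0.11 ± 0.06 and 0.07 ± 0.08.

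Among the 6 genes of origin licensing 1 rose and 4 fell, against 21.1% and 19.5% of all tested genes. The median log2 fold change of the 6 was -0.24. Orc2, of the origin recognition complex, had 67.8, 73.8 and 71.6 CPM in the siHsf1 LacZ libraries, against 89.3, 94.2 and 88.3 CPM in the siControl LacZ libraries (log2 fold change -0.35 with SE 0.08, edgeR adjusted p = 0.00082). Cdt1, which brings the MCM ring to origins, had 145, 151 and 125 CPM in the siHsf1 LacZ libraries and 161, 187 and 184 CPM in the siControl LacZ libraries (log2 fold change -0.34 with SE 0.08, edgeR adjusted p = 0.000876). The groups did not overlap for either gene, and both calls were kept in all 12 fits without 1 library. Geminin (Gmnn), the inhibitor of CDT1, fell alongside it, with 66.7, 73.2 and 68.1 CPM in the siHsf1 LacZ libraries, against 84.2, 96.6 and 74.0 CPM in the siControl LacZ libraries (log2 fold change -0.29 with SE 0.08, edgeR adjusted p = 0.00676). Without siControl LacZ library 2 its adjusted p was 0.0534. Cdc6 fell (log2 fold change -0.18 with SE 0.07, edgeR adjusted p = 0.0334) and Orc1, the largest subunit of the origin recognition complex, rose (log2 fold change 0.23 with SE 0.09, edgeR adjusted p = 0.0346). In the same 12 fits the call of Cdc6 was lost without siControl LacZ 1, 2 or 3 or siHsf1 LacZ 1 or 3, and that of Orc1 was kept only without siControl LacZ 3, siHsf1 GCN5 1 or 3 or siControl GCN5 3. Orc6 was not called, with 132 ± 9.13 CPM in the siHsf1 LacZ libraries, against 131 ± 7.38 CPM in the siControl LacZ libraries (SD, n = 3 each).

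In the MCM ring 2 of 6 genes rose and none fell, against 21.1% and 19.5% of all tested genes. The median of the 6 was 0.01. Mcm2 had 506, 569 and 507 CPM in the siHsf1 LacZ libraries, against 438, 420.5 and 441 CPM in the siControl LacZ libraries. All siHsf1 libraries lay above all siControl libraries (log2 fold change 0.28 with SE 0.06, edgeR adjusted p = 0.000223), and the call was kept in all 12 fits without 1 library, although with spike-in scaling the value was -0.11 ± 0.31. Mcm4 had 295, 294 and 314 CPM in the siHsf1 LacZ libraries, against 276, 259 and 278 CPM in the siControl LacZ libraries (log2 fold change 0.15 with SE 0.06, edgeR adjusted p = 0.0348), a call kept only without siHsf1 LacZ 1 or 2 or siControl LacZ 3. The other ring subunits were not called, from -0.09 ± 0.06 for Mcm7 to 0.06 ± 0.05 for Mcm6.

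Of the 9 genes that activate the helicase or couple it to synthesis, 1 rose and 2 fell, against 21.1% and 19.5% of all tested genes. The median of the 9 was -0.02. Dbf4, the regulatory subunit of the CDC7 kinase, had 107, 110.0 and 112 CPM in the siHsf1 LacZ libraries, against 120.1, 135 and 124 CPM in the siControl LacZ libraries (log2 fold change -0.21 with SE 0.07, edgeR adjusted p = 0.015). Its kinase partner Cdc7 was not called, at 53.3 ± 3.01 CPM in the siHsf1 LacZ libraries, against 52.4 ± 3.64 CPM in the siControl LacZ libraries. Mcm10, which helps start the helicase, fell (log2 fold change -0.20 with SE 0.08, edgeR adjusted p = 0.0372) with overlapping groups. Wdhd1, which links the helicase to polymerase alpha, rose, with 77.0, 78.5 and 77.5 CPM in the siHsf1 LacZ libraries, against 72.2, 53.6 and 71.8 CPM in the siControl LacZ libraries (log2 fold change 0.24 with SE 0.09, edgeR adjusted p = 0.0408). The call of Dbf4 was lost without siControl LacZ 2 or siHsf1 LacZ 1, that of Mcm10 lost without siControl LacZ 1 or 3 or siHsf1 LacZ 1 or 3 and that of Wdhd1 kept only without siControl LacZ 1 or 3. For Wdhd1 siControl LacZ library 2 lay below the other siControl LacZ libraries. The GINS genes were not called, from -0.10 for Gins3 through -0.02 for Gins1 and 0.05 for Gins4 to 0.09 for Gins2.

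Cdc45, the remaining helicase partner, could not be measured reliably. It had 18, 190 and 178 counts in siHsf1 LacZ libraries 1 to 3, and 144, 125 and 432 counts in siControl LacZ libraries. The GCN5 line was as uneven, with 51, 155 and 122 counts in siHsf1 libraries and 44, 50 and 170 counts in siControl libraries. Its coefficient of variation within a group reached 82.1%, against 17.1% for the next most variable member, Pole2, so its log2 fold change of -0.92 ± 0.81 (edgeR adjusted p = 0.418) carries little information.

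Among the polymerase and primase genes 1 of 9 rose and 3 fell, against 21.1% and 19.5% of all tested genes. The median of the 9 was -0.07. Besides Pold2, the catalytic subunits of polymerase alpha and polymerase epsilon fell. Pola1 had 148, 121 and 141 CPM in the siHsf1 LacZ libraries, against 166, 154 and 156 CPM in the siControl LacZ libraries (log2 fold change -0.22 with SE 0.07, edgeR adjusted p = 0.0215). Pole had 129, 138 and 126 CPM in the siHsf1 LacZ libraries, against 161, 126 and 167 CPM in the siControl LacZ libraries (log2 fold change -0.21 with SE 0.08, edgeR adjusted p = 0.0379), with groups that overlapped. Prim2, the large subunit of primase, rose, with 82.1, 85.2 and 80.8 CPM in the siHsf1 LacZ libraries, against 73.6, 68.9 and 71.2 CPM in the siControl LacZ libraries (log2 fold change 0.22 with SE 0.07, edgeR adjusted p = 0.0223). The call of Pola1 was lost without siControl LacZ 1 or siHsf1 LacZ 2, that of Pole lost without siControl LacZ 1 or 3 or siHsf1 LacZ 1 or 3 and that of Prim2 lost without siHsf1 LacZ 2. The primase catalytic subunit Prim1 was not called, at -0.07 ± 0.08, nor were Pola2 at 0.08 ± 0.07 and Pole2 at -0.10 ± 0.12.

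The clamp gene Pcna had 358, 373 and 385 CPM in the siHsf1 LacZ libraries, against 367, 411 and 355 CPM in the siControl LacZ libraries, which overlapped and were not called (log2 fold change -0.02 with SE 0.06, edgeR adjusted p = 0.801). Genes of its loader RFC moved apart. Rfc5 had 80.5, 85.3 and 92.4 CPM in the siHsf1 LacZ libraries, against 99.9, 112 and 109 CPM in the siControl LacZ libraries (log2 fold change -0.32 with SE 0.07, edgeR adjusted p = 0.000758), without overlap and with the call kept in all 12 fits. Rfc1, the large subunit, also fell (log2 fold change -0.21 with SE 0.07, edgeR adjusted p = 0.0188), whereas Rfc3 rose, with 79.9, 92.4 and 89.3 CPM in the siHsf1 LacZ libraries, against 66.7, 81.7 and 64.8 CPM in the siControl LacZ libraries (log2 fold change 0.30 with SE 0.09, edgeR adjusted p = 0.00773). The groups overlapped for Rfc3, and the call was lost without siControl LacZ library 1. Rfc2 and Rfc4 were not called, at 0.02 ± 0.07 and -0.06 ± 0.09. Rpa2, of the complex that coats single-stranded DNA, fell (log2 fold change -0.23 with SE 0.08, edgeR adjusted p = 0.0204), while its partners Rpa1 and Rpa3 were not called, at 0.06 ± 0.05 and -0.12 ± 0.11. The call of Rfc1 was lost without siControl LacZ 1 or 3, and that of Rpa2 lost without siControl LacZ 2 or siHsf1 LacZ 1.

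Neither enzyme of Okazaki fragment maturation was called. Lig1, the ligase that seals fragments, had 282, 298 and 285 CPM in the siHsf1 LacZ libraries, against 258, 268 and 264 CPM in the siControl LacZ libraries, without overlap (log2 fold change 0.13 with SE 0.06, edgeR adjusted p = 0.0665). The flap nuclease gene Fen1 stood at 0.04 ± 0.07. The E2F genes were not called either. E2f1 had 89.7, 93.7 and 89.4 CPM in the siHsf1 LacZ libraries, against 89.0, 81.5 and 81.6 CPM in the siControl LacZ libraries (log2 fold change 0.12 with SE 0.07, edgeR adjusted p = 0.201). E2f2 had 33.4, 35.0 and 34.8 CPM in the siHsf1 LacZ libraries, against 35.9, 37.2 and 39.3 CPM in the siControl LacZ libraries (log2 fold change -0.12 with SE 0.10, edgeR adjusted p = 0.326).

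**Figure D2:**
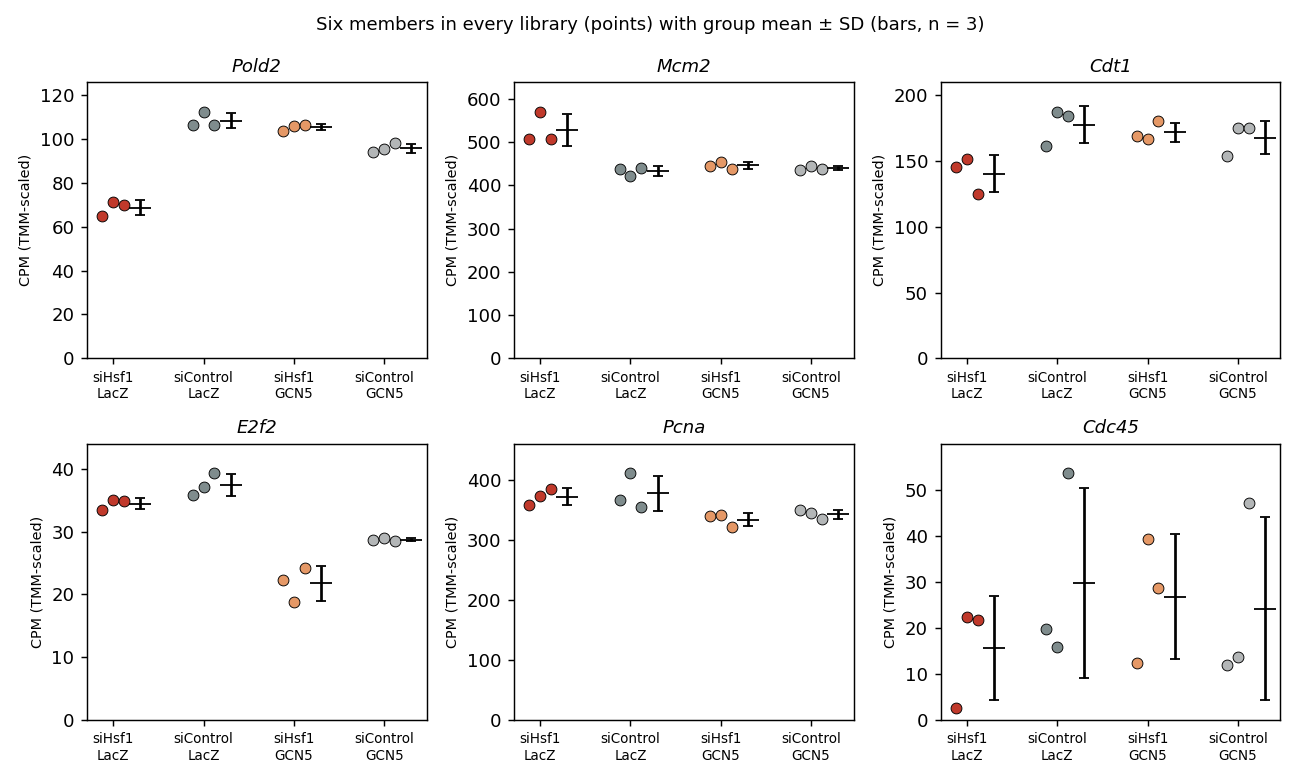
Levels of Pold2, Mcm2, Cdt1, E2f2, Pcna and Cdc45 in CPM (TMM-scaled) in every library (points) of the 4 groups, with group mean and SD as bars (n = 3). Pold2 and Cdt1 are lowest and Mcm2 highest in siHsf1 LacZ, E2f2 is lowest in siHsf1 GCN5, and Cdc45 spreads widely inside every group.

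The mitosis genes fell more often. Of 42 mitosis genes, 39 fell and 1 rose, against 19.5% and 21.1% of all tested genes. The median of the 42 was -0.49. Aurka, the kinase that matures spindle poles, had 66.8, 71.6 and 69.5 CPM in the siHsf1 LacZ libraries, against 120.4, 129.7 and 120.4 CPM in the siControl LacZ libraries (log2 fold change -0.83 with SE 0.07, edgeR adjusted p = 3.06e-10). Aurkb, Incenp and Cdc20, which act on chromosome attachment and exit from mitosis, fell by 0.72, 0.64 and 0.72 on the log2 scale. The exceptions, named after their values were seen, were the securin gene Pttg1, which rose (log2 fold change 0.41 with SE 0.12, edgeR adjusted p = 0.00743), and Kif11 and Nek2, which were not called. Kif11 and Nek2 had the lowest values of the list, at -1.997 ± 0.87 and -2.58 ± 1.58, but counts too uneven to be called. For both, every siHsf1 LacZ library lay below every siControl LacZ library. With spike-in scaling 12 of the 42 fell and none rose, with a median of -0.85. The share called was 28.6%, against 7.02% of all tested genes called in either direction.

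Further E2F targets and replication genes lay between the members and the mitosis genes. Of 30 other E2F targets, 15 fell and 2 rose, against 19.5% and 21.1% of all tested genes. The median of the 30 was -0.18. Rrm2, the ribonucleotide reductase subunit that supplies deoxynucleotides, had 206, 193 and 199 CPM in the siHsf1 LacZ libraries, against 280.0, 309 and 300.5 CPM in the siControl LacZ libraries (log2 fold change -0.57 with SE 0.06, edgeR adjusted p = 2.36e-08). The cyclin A2 gene Ccna2 and the transcription factor gene Mybl2 fell too, at -0.57 ± 0.06 and -0.61 ± 0.07. The genes that rose were Chaf1a and Chaf1b, subunits of chromatin assembly factor 1, at 0.20 ± 0.06 and 0.25 ± 0.08; they are named after their values were seen. Of 24 further replication genes tested, 9 fell and none rose, with a median of -0.15, led by Top1, which relaxes supercoiled DNA (-0.50 ± 0.07), the FACT histone chaperone genes Ssrp1 (-0.37 ± 0.05) and Supt16 (-0.35 ± 0.06), and the checkpoint gene Topbp1 (-0.32 ± 0.06). Of 11 E2F partners and RB-family genes, 3 fell and none rose. Tfdp1, which encodes a dimer partner with which most E2F proteins bind DNA, had 216, 211 and 216 CPM in the siHsf1 LacZ libraries, against 377, 378 and 359.6 CPM in the siControl LacZ libraries (log2 fold change -0.79 with SE 0.05, edgeR adjusted p = 3.64e-11). The repressor genes E2f4 and E2f8 fell too, at -0.39 ± 0.07 and -0.35 ± 0.11, and Rb1 was not called, at 0.19 ± 0.11. With spike-in scaling 3 of the other E2F targets, 1 of the further replication genes and 1 of the E2F partners fell, and none rose. The shares called were 10%, 4.17% and 9.09%, near the 7.02% of all tested genes called in either direction.

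**Figure D3:**
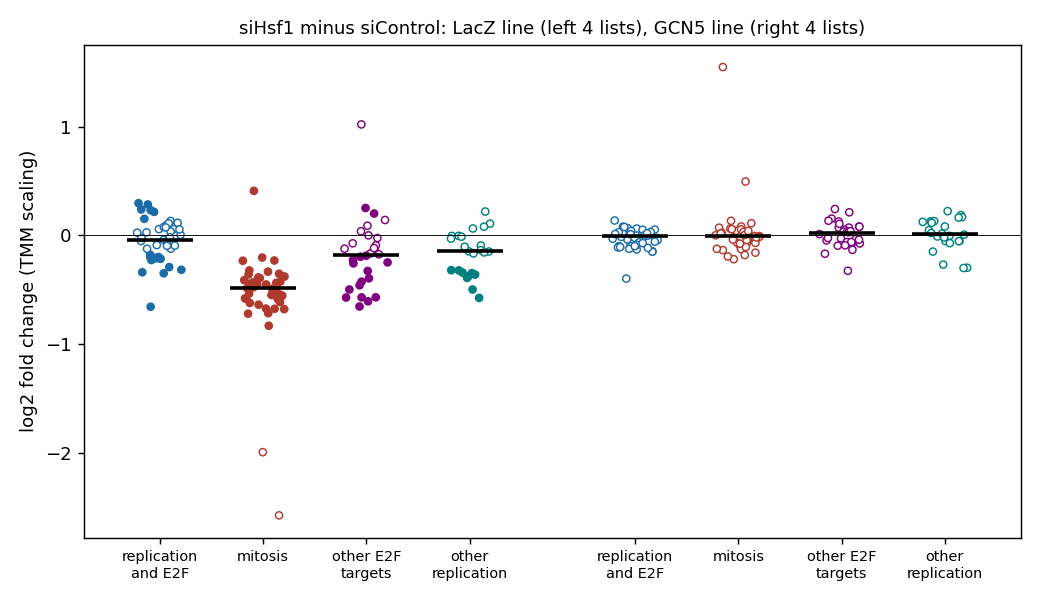
Log2 fold change (TMM scaling) of each gene, siHsf1 minus siControl, by list, for the LacZ line (left 4 lists) and the GCN5 line (right 4 lists); points are genes, filled where the edgeR adjusted p was under 0.05, and black lines are list medians. In the LacZ line the mitosis genes centre on -0.49 and the replication and E2F genes on -0.04, and in the GCN5 line all 4 medians lie near 0; Cdc45 is left out of the points but not of the medians.

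The distance between the replication and mitosis genes was also taken inside each library, where library scaling almost cancels. The mean log2(CPM + 0.5) of the 43 members minus that of the 42 mitosis genes was 0.17, 0.49 and 0.29 in siHsf1 LacZ libraries, against -0.19, -0.09 and -0.14 in siControl LacZ libraries. It was -0.08, -0.07 and -0.26 in siHsf1 GCN5 libraries and -0.14, -0.12 and -0.13 in siControl GCN5 libraries. The siHsf1 LacZ libraries alone lay above 0. Group means were 0.32 ± 0.16 in siHsf1 LacZ and -0.14 ± 0.05 in siControl LacZ (SD, n = 3 each), a change of 0.46 that ran from 0.37 to 0.53 when 1 library was left out and was 0.43 without the uneven genes Cdc45, Kif11 and Nek2. In the GCN5 line the means were -0.14 ± 0.11 in siHsf1 and -0.13 ± 0.01 in siControl libraries, a change of -0.01. The members themselves averaged 6.68 ± 0.08 in siHsf1 LacZ and 6.75 ± 0.02 in siControl LacZ, and the mitosis genes 6.36 ± 0.09 in siHsf1 LacZ and 6.89 ± 0.03 in siControl LacZ. These are described without a test, since the lists were chosen with earlier results known. In bulk RNA a change in the share of cells in a phase and a change in RNA per cell cannot be told apart.

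**Figure D4:**
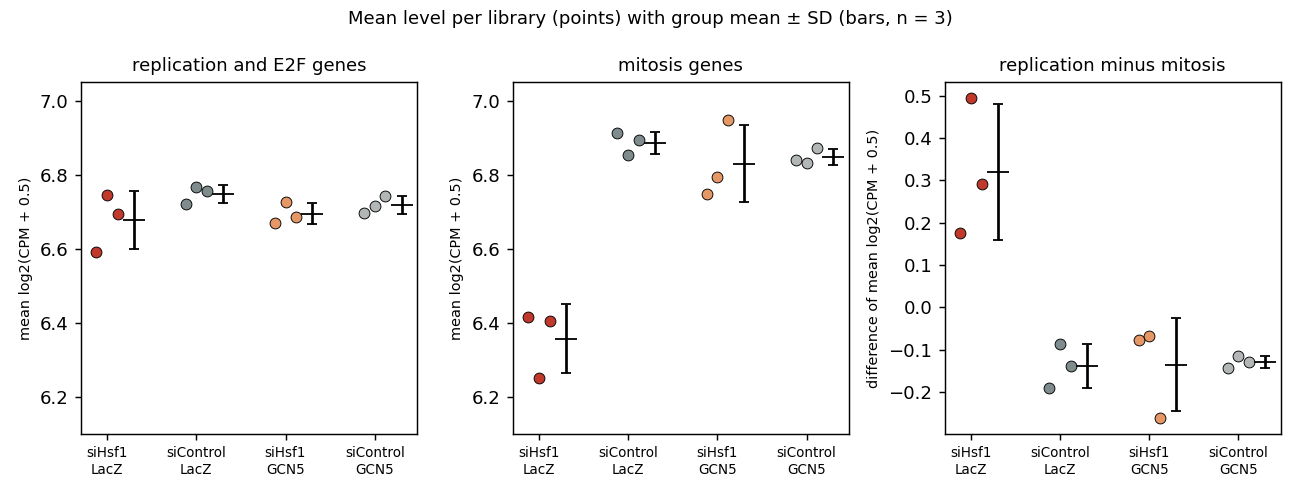
Mean log2(CPM + 0.5; TMM-scaled) per library of the 43 replication and E2F genes, of the 42 mitosis genes, and their difference, with group mean and SD (bars, n = 3). The siHsf1 LacZ libraries are low for mitosis genes (group mean 6.36) but not set apart for replication genes, so their difference lies between 0.17 and 0.49 while all other libraries lie under 0.

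In the GCN5 line no member was called after Hsf1 knockdown with either scaling, where 0.164% of all tested genes were called with TMM scaling and 0.041% with spike-in scaling. The median log2 fold change of the 43 was -0.01 with TMM scaling, and 1 member had an unadjusted p under 0.05; with spike-in scaling the median was -0.04, none had such a p, and DESeq2 with either scaling called 0. That member was E2f2, with 22.4, 18.7 and 24.2 CPM in siHsf1 GCN5 libraries and 28.7, 29.0 and 28.5 CPM in siControl GCN5 libraries. Its groups did not overlap (log2 fold change -0.40 with SE 0.12, edgeR adjusted p = 0.25). Pold2 stood at 104, 106 and 106 CPM in siHsf1 GCN5 and 93.8, 95.2 and 98.0 CPM in siControl GCN5 libraries, higher in all siHsf1 libraries but not called (log2 fold change 0.14 with SE 0.07, edgeR adjusted p = 0.533). Mcm2, with 446 ± 9.12 CPM in siHsf1 GCN5 and 439 ± 4.89 CPM in siControl GCN5 libraries, and Cdt1, with 172 ± 7.23 and 168 ± 12.3 CPM in the same groups (SD, n = 3 each), overlapped between the groups. Rfc5 and Gins2, next by p, stood at -0.15 ± 0.08 and -0.15 ± 0.08. Of the 42 mitosis genes, the 30 other E2F targets, the 24 further replication genes and the 11 E2F partners, 0 were called by edgeR with either scaling; with TMM scaling 3, 1, 3 and 0 of them had an unadjusted p under 0.05.

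Whether the knockdown acted differently in the 2 lines was tested as the difference of the effects, GCN5 line minus LacZ line. The knockdown itself was not equal: Hsf1 was higher in every siHsf1 GCN5 library than in every siHsf1 LacZ library (TMM scaling, values above). The part of this in the calls was not tested. With TMM scaling 6 members were called, against 21.9% of all tested genes: 3 were higher, against 11.0%, and 3 lower, against 10.9%. Pold2 differed most, at 0.79 ± 0.10 (edgeR adjusted p = 1.55e-06), followed by Cdt1 at 0.38 ± 0.11 (edgeR adjusted p = 0.0164) and Orc2 at 0.34 ± 0.11 (edgeR adjusted p = 0.032), genes that fell in the LacZ line. The 3 lower ones were Mcm2 at -0.26 ± 0.08 (edgeR adjusted p = 0.0196), Prim2 at -0.32 ± 0.11 (edgeR adjusted p = 0.0442) and Lig1 at -0.23 ± 0.08 (edgeR adjusted p = 0.045). Pold2 stayed called in all 12 fits without 1 library. The call of Cdt1 was lost without siHsf1 LacZ 3, that of Orc2 lost without siHsf1 LacZ 1, siControl GCN5 3 or siHsf1 GCN5 1, that of Mcm2 lost without siControl GCN5 1, 2 or 3 or siHsf1 GCN5 2 or 3, that of Lig1 kept only without siHsf1 LacZ 1 or siControl LacZ 2 and that of Prim2 kept only without siHsf1 GCN5 2. The next by p, not called, were Rfc1 at 0.27 ± 0.10, Rfc3 at -0.33 ± 0.13 and Gmnn at 0.30 ± 0.12. With spike-in scaling no member was called by edgeR, against 0.394% of all genes; 1 had an unadjusted p under 0.05, and DESeq2 with spike-in scaling called 0 as well. Of the mitosis genes, 34 of 42 were higher in this difference with TMM scaling, with a median of 0.45. Of the E2F partners, Tfdp1 was higher (0.83 ± 0.08, edgeR adjusted p = 2.98e-08), as was E2f4. For Myc the siHsf1 LacZ libraries had 99.7, 89.6 and 88.3 CPM, against 131, 143 and 148 CPM with siControl, and the siHsf1 GCN5 libraries 158, 144 and 139 CPM, against 129.8, 108 and 125 CPM with siControl. For Kat2a the siHsf1 LacZ libraries had 125, 118 and 130.4 CPM, against 216, 215 and 220.3 CPM with siControl, and the siHsf1 GCN5 libraries 248, 253 and 245 CPM, against 263, 234 and 246 CPM with siControl. With siControl, Kat2a was thus higher in every GCN5 library than in every LacZ library, but only by a small margin. Myc and Kat2a were both lowest in siHsf1 LacZ, the group in which Pold2 and the mean of the mitosis genes were lowest. The part of Myc and Kat2a in the result was not tested. These comparisons share the siHsf1 LacZ and other libraries, so their values for a gene are not independent.

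Between the lines under control siRNA few members were called. With spike-in scaling all 43 lay lower in the GCN5 line, with a median of -0.39 against -0.40 for all genes, and with TMM scaling the median was 0.01. For GCN5 minus LacZ with siControl and TMM scaling, 1 member was called, against 9.6% of all genes. This was E2f2, with 28.7, 29.0 and 28.5 CPM in the siControl GCN5 libraries, against 35.9, 37.2 and 39.3 CPM in the siControl LacZ libraries (log2 fold change -0.38 with SE 0.10, edgeR adjusted p = 0.0193), a call lost without siControl LacZ 3 or siControl GCN5 1, 2 or 3. No member was called by edgeR with spike-in scaling, against 1.5% of all genes, with 1 at an unadjusted p under 0.05 and 0 called by DESeq2. Under siHsf1 the lines differed more. With TMM scaling 20 members were called, against 44.8% of all genes: 10 were higher in the GCN5 line, against 22.3%, and 10 lower, against 22.6%. The higher ones were led by Pold2 (0.62 ± 0.07, edgeR adjusted p = 8.69e-08), Cdc6 (0.36 ± 0.07) and Orc2 (0.40 ± 0.08). Of the lower ones E2f2 stood first (-0.66 ± 0.11, edgeR adjusted p = 2.15e-05), before Mcm2 (-0.24 ± 0.06) and Rfc3 (-0.34 ± 0.09). E2f2 was thus lower in the GCN5 line under either siRNA. With spike-in scaling none was called by edgeR under siHsf1, against 5.44% of all genes; 1 had an unadjusted p under 0.05, and DESeq2 called 0. Depth differed with the line in both of these comparisons, and the 2 cannot be told apart.

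Peaks of c-MYC lay at the starts of most replication genes in Hsf1 WT cells and of fewer in Hsf1 CKO cells. The authors deposited 1 peak list per genotype, of 6386 peaks for Hsf1 CKO and 220037 for Hsf1 WT, made from 2 libraries each, so that nothing on peaks has a replicate error. Within 1000 bases of the annotated start 17 of 43 members had a peak in the Hsf1 CKO list (39.5%, Wilson 95% interval 26.4% to 54.4%), against 35.2% of all tested genes with a position. In the Hsf1 WT list 39 of 43 did (90.7%, 78.4% to 96.3%), against 77.3% of all. The intervals cover only the count among 43 genes picked by name, not libraries, and are no test against all genes. Of the mitosis genes 17 of 42 had a peak in the CKO list and 34 of 42 in the WT list, shares of 40.5% and 81.0%. Other E2F targets had one in 19 of 30 (63.3%) in the CKO list and 26 of 30 (86.7%) in the WT list. The lists differ widely in length, so a peak present in the WT list alone cannot be told apart from a difference in how many peaks were called.

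All 17 members with a peak in the CKO list also had one in the WT list, 22 had one in the WT list alone, and Gmnn, Mcm10, Prim1 and Pold3 had none in either. This holds for the annotated start. With any RefSeq start of a gene allowed too, 19 members had a CKO peak (37.0% of all tested genes did). In the WT list 40 did, against 79.6% of all. The peak values are maximal coverage as the authors give it, on a scale that the sources used here do not state, and were compared only inside a list. In the CKO list the members' maxima ran from 0.00288 to 0.00757, with a median of 0.00469 against 0.00433 for all genes with a peak. The highest were Mcm7 and Orc6 at 0.00757, Pold2 at 0.00721 and Cdt1 at 0.00649. In the WT list they ran from 0.00274 to 0.0164, with a median of 0.00684 against 0.00616. Mcm7 and Cdt1 were highest there too, at 0.0164, before Orc6 at 0.0151 and Pold2 at 0.0137. The Pold2 peak covered chromosome 11, 5877272 to 5879205, in the CKO list and 5872961 to 5879192 in the WT list, and both take in the promoter printed above. For Mcm2, which rose with TMM scaling, a peak was listed in the WT list alone, at chromosome 6, 88898190 to 88899786.

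**Figure D5:**
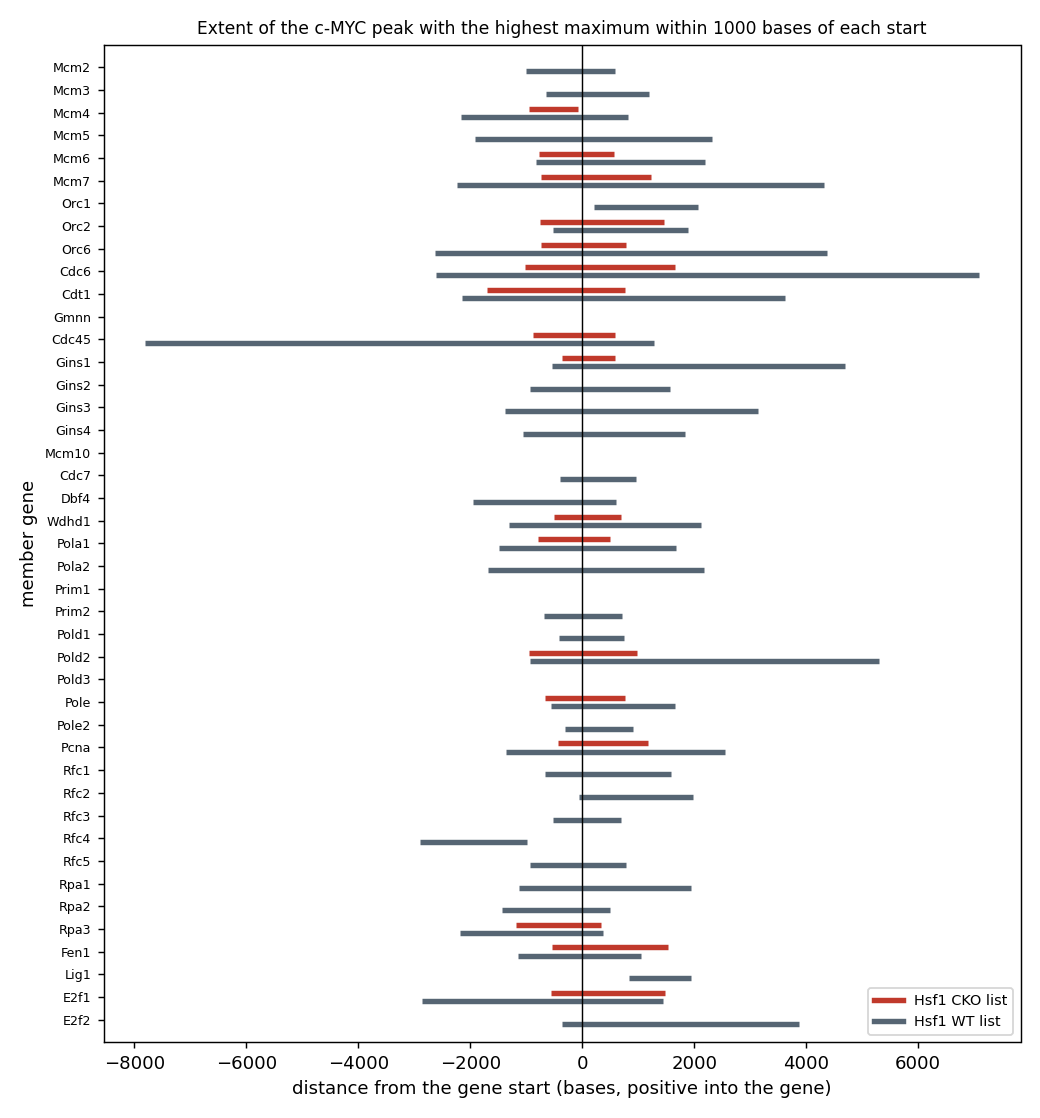
Extent of the c-MYC peak with the highest maximum within 1000 bases of each member's start, in bases from the start (positive into the gene), for the Hsf1 CKO list (red, upper) and the Hsf1 WT list (grey, lower). A CKO bar is drawn for 17 genes and a WT bar for 39, and Gmnn, Mcm10, Prim1 and Pold3 have neither.

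Peak state and expression were set side by side. Of the 17 members with a peak in both lists 2 rose and 6 fell after Hsf1 knockdown in the LacZ line (TMM scaling), with a median of -0.09, where of all tested genes of this peak state 18.9% rose and 28.3% fell. Of the 22 with a peak in the WT list alone 4 rose and 4 fell, with a median of 0.03, against 23.3% and 15.2% of all tested genes of this state. Of the 4 with none, Gmnn and Mcm10 fell, against 14.4% of all genes with none. Of 13 members with an E2F word 1 rose and 3 fell, with a median of -0.09, against 16.4% and 22.5% of all tested genes with the word. Of 22 without it 3 rose and 7 fell, with a median of -0.04, against 22% and 19.2% of all. The E2F words were sought at RefSeq starts and the peaks at annotated starts, which lay up to 3834 bases apart (Orc1). The knockdown and the deletion of Hsf1 were made in different cells and over different times, and these counts are a description.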

How the data were processed

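The authors deposited a table of read counts per gene and a table of FPKM for the 12 RNA libraries, and 1 list of c-MYC peaks per genotype with the authors' signal (coverage summed over the peak) and score (maximal coverage in it). HISAT2, Bowtie2, SEACR and DESeq2 are named in the submitters' processing notes, without versions; the program that counted reads is not given in the sources used here. RNA was depleted of ribosomal RNA, and ERCC spike-in RNA was added, per the labels' protocols. Of the 21 samples of the series, 4 further RNA libraries were not analysed here.

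From the deposited counts, edgeR 4.0.16 (R 4.3.3) was run on 12187 genes that passed its expression filter (minimum count 10), with 4 group means, robust quasi-likelihood tests and Benjamini-Hochberg adjustment over all genes tested; adjusted p under 0.05 was called. Libraries were scaled by the 23 ERCC transcripts that both mixes hold at equal amounts, a membership listed from general knowledge of the product and not read from the files, and by TMM. The labels give different ERCC mixes for siControl and siHsf1 libraries, yet subgroup A, whose amounts differ between the mixes, took 1.36 to 1.54 times the counts of subgroup B across the 12 libraries, so that these counts do not show different mixes. The biological coefficient of variation was 0.274 with spike-in scaling and 0.089 with TMM scaling, with 8 residual degrees of freedom. ERCC reads took 0.711% to 1.65% of counts, and 3 counts, the limit that a count of 0 allows, correspond to 0.368 to 0.812 CPM; intervals and such limits cover counting error only. FPKM values, as the authors deposited them, were used only to order genes. The code was tested on simulated data.

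Peaks were assigned to a gene when within 1000 bases of its annotated start (GRCm38). Whether replicates were pooled before peak calling is not given in the sources used here. Promoter sequences are from RefSeq (GRCm38.p6), at the RefSeq start nearest the annotated start.

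The members and the gene lists were chosen with earlier results of these data known. All 43 members were to be accounted for. By rule, each comparison names up to 12 members with the smallest edgeR p with TMM scaling and the 4 with the largest, at least 1 member per role and up to 4 genes of each other list; further members named beside them were chosen after their values were seen. One gene that this rule names is not reported here. Alternatives were other scalings, no expression filter, DESeq2 1.42.0, a replicate block, leaving out each library, other windows, any RefSeq start of a gene and a stricter peak maximum. Replicate numbers were checked for pairing after TMM scaling only and were not used as pairs in the main fits.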

Additional observations from a re-analysis of the deposited data

Results flagged for a closer look

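The effect of Hsf1 knockdown was called different between the lines for 6 of 43 members with TMM scaling, against 21.9% of all tested genes. The value tested was the difference itself (GCN5 line effect minus LacZ line effect, log2). It was 0.79 for Pold2, 0.38 for Cdt1 and 0.34 for Orc2, with edgeR adjusted p = 1.55e-06, 0.0164 and 0.032. It was -0.26 for Mcm2, -0.32 for Prim2 and -0.23 for Lig1, with edgeR adjusted p = 0.0196, 0.0442 and 0.045. Of 12 fits without 1 library, Pold2 stayed called in 12, Cdt1 in 11, Orc2 in 9, Mcm2 in 7, Lig1 in 2 and Prim2 in 1. With spike-in scaling none of the 6 was called, and the value of Pold2 was 1.14 (edgeR adjusted p = 0.434). Depth and the level of Hsf1 left after knockdown differed between the lines, and their part in these differences was not tested.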

How the results depend on the processing

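Scaling decided most calls. With spike-in scaling 1 member was called after Hsf1 knockdown in the LacZ line, but 16 with DESeq2 size factors, 12 with total counts and 18 with TMM, while leaving out 1 library gave 0 to 12 (12 without siHsf1 LacZ library 1). For the interaction the spike-in count of 0 became 5, 5 and 6 under those scalings (0 to 1 without 1 library), for the lines under siControl 1, 1 and 1, and for the lines under siHsf1 18, 21 and 20 (0 to 1 without 1 library). After TMM scaling the replicate numbers did not pair the samples (correlations -0.06 to 0.10 over 18 pairs, 1 over 0.1, 11 best with their own number). That check cannot see pairing in the amount of spike-in RNA. The 23 ERCC transcripts took 0.177%, 0.356% and 0.248% of counts in siHsf1 LacZ libraries 1 to 3. In siControl LacZ they took 0.142%, 0.239% and 0.190%, in siHsf1 GCN5 0.229%, 0.232% and 0.286%, and in siControl GCN5 0.197%, 0.296% and 0.238%. Library 1 had the lowest share in every group, and library 2 the highest in every group except siHsf1 GCN5. Whether these shares follow the replicate number beyond this order was not tested. A fit with the numbers as a replicate block called 12, 1, 1 and 2 members in these 4 comparisons with spike-in scaling. With TMM scaling 18 members were called in the LacZ line, 1 with all 92 ERCC transcripts or the 23 alone, 11 in a fit of the 6 LacZ libraries, and 10 to 16 without 1 library; the interaction's 6 became 0 with either ERCC scaling and 2 to 8 without 1 library. The lines under siControl gave 1, and 0 with either ERCC scaling or DESeq2 and 0 to 1 without 1 library, and the lines under siHsf1 gave 20, 0 with either ERCC scaling, and 11 to 22 without 1 library. The cause was not tested.

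Signs turned with scaling for the members that rose. In the LacZ line, with DESeq2 size factors, total counts and TMM in place of the spike-in, the values were 0.27, 0.33 and 0.28 for Mcm2, 0.28, 0.34 and 0.30 for Rfc3, 0.20, 0.26 and 0.22 for Prim2, and 0.22, 0.27 and 0.23 for Orc1; with total counts and TMM they were 0.19 and 0.15 for Mcm4 and 0.28 and 0.24 for Wdhd1. In the interaction they were -0.25, -0.28 and -0.26 for Mcm2, and with total counts and TMM -0.34 and -0.32 for Prim2 and -0.25 and -0.23 for Lig1. In place of TMM, all 92 and the 23 ERCC transcripts gave -0.11 and -0.11 for Mcm2, -0.0751 and -0.0741 for Rfc3, -0.17 and -0.17 for Prim2, -0.23 and -0.23 for Mcm4, -0.14 and -0.14 for Orc1 and -0.17 and -0.17 for Wdhd1 in the LacZ line, and 0.0767 and 0.10 for Mcm2, 0.0296 and 0.0485 for Prim2 and 0.0871 and 0.11 for Lig1 in the interaction. Members with a CKO peak numbered 17, and 10 with the stricter maximum. The change of the replication minus mitosis difference in the LacZ line was 0.48 without Cdc45, 0.40 without Kif11 and Nek2 and 0.43 without all of these unevenly counted genes, alternatives chosen after seeing the data.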
